A study of Mus musculus with 8 samples.

Results

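Matricellular proteins are secreted into the extracellular matrix, where they regulate how cells attach, move and respond to growth factors more than they bear load. Thrombospondins, tenascins, osteopontin, periostin and the SPARC proteins are the main families. In the arterial wall several of them are scarce in the resting adult vessel and are produced during injury and remodelling. The 10 genes described here are Thbs1, Thbs2, Thbs3, Thbs4, Tnc, Tnxb, Spp1, Postn, Sparc and Sparcl1. They were taken by gene symbol from a deposited table of 13839 genes, in which all 10 were present, and all 10 passed the filter on low counts.

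The data are RNA-seq libraries of mouse aortic tissue, 5 from control and 3 from TAD mice; TAD is the study's model of thoracic aortic dissection. From the age of 3 weeks TAD mice received in their drinking water, for 4 weeks, a daily 1 g/kg of beta-aminopropionitrile monofumarate (BAPN), which blocks lysyl oxidases and with them the crosslinking of elastin and collagen, and at 7 weeks received an implanted pump delivering angiotensin II, a vasoconstrictor peptide, at 1 µg/kg per min. Tissue was taken 24 h later, so the effects of BAPN, of angiotensin II and of the dissection itself cannot be told apart. The treatment of the controls, the strain and the sex are not given in the sources used here, and the labels do not say whether the libraries are of separate mice. The p-values therefore rest on library-to-library spread, which may be technical.

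The libraries held 12042971 to 15039132 counts. Smooth muscle and endothelial markers were present in every library, with none at 0, but the makeup of the tissue varied. The summed level of 8 smooth muscle markers ran from 2556 to 12200 CPM (counts scaled to the TMM-adjusted library size) in control and from 844 to 4946 CPM in TAD, and 1 of the 8 was called lower. Des, 1 of the 8, stood at 446, 1586 and 635 CPM in control 1, control 2 and TAD 1. It stood at 24.4 to 142 CPM elsewhere, so the sums of those libraries rest partly on Des. Heart muscle markers (6 genes) summed to 17037 CPM in control 1 and 11215 CPM in TAD 1, against 30.7 to 2913 CPM in the other libraries. In TAD 2 the 9 fibroblast markers summed to 1274 CPM, against 3590 to 6197 CPM elsewhere, and the 3 neuronal and Schwann cell markers to 910 CPM, against 14.5 to 90.7 CPM. No fibroblast marker was called. In such bulk tissue, fewer cells of a type and less RNA per cell cannot be told apart.

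Thbs1, Spp1 and Tnc were higher in TAD and Sparcl1 was lower, at an adjusted p below 0.05 (edgeR quasi-likelihood test, Benjamini-Hochberg adjustment over 13701 genes). Thbs1 rose 28.3-fold, Spp1 265-fold and Tnc 4.49-fold, and Sparcl1 fell 2.13-fold. The other 6 genes did not pass. These 4 calls of 10 compare with 27.0% of all genes called, the 3 higher calls with 15.2% of genes called higher, and the 1 lower call with 11.8% called lower. The groups did not overlap for 4 of the 10 genes (Thbs1, Spp1, Sparcl1 and Tnxb), against 31.9% of all genes. These shares over 10 genes are a description and are not read as particular to the families. DESeq2 called 5 of the 10, and leaving out 1 library gave between 3 and 5. Calls over all genes changed as well. They were 4747 of 13839 with DESeq2, against 3705 of 13701 with edgeR. With 1 library left out they ran from 2549 of 13776 (without TAD 1) to 3728 of 13761 (without TAD 2).

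**Figure D1:**
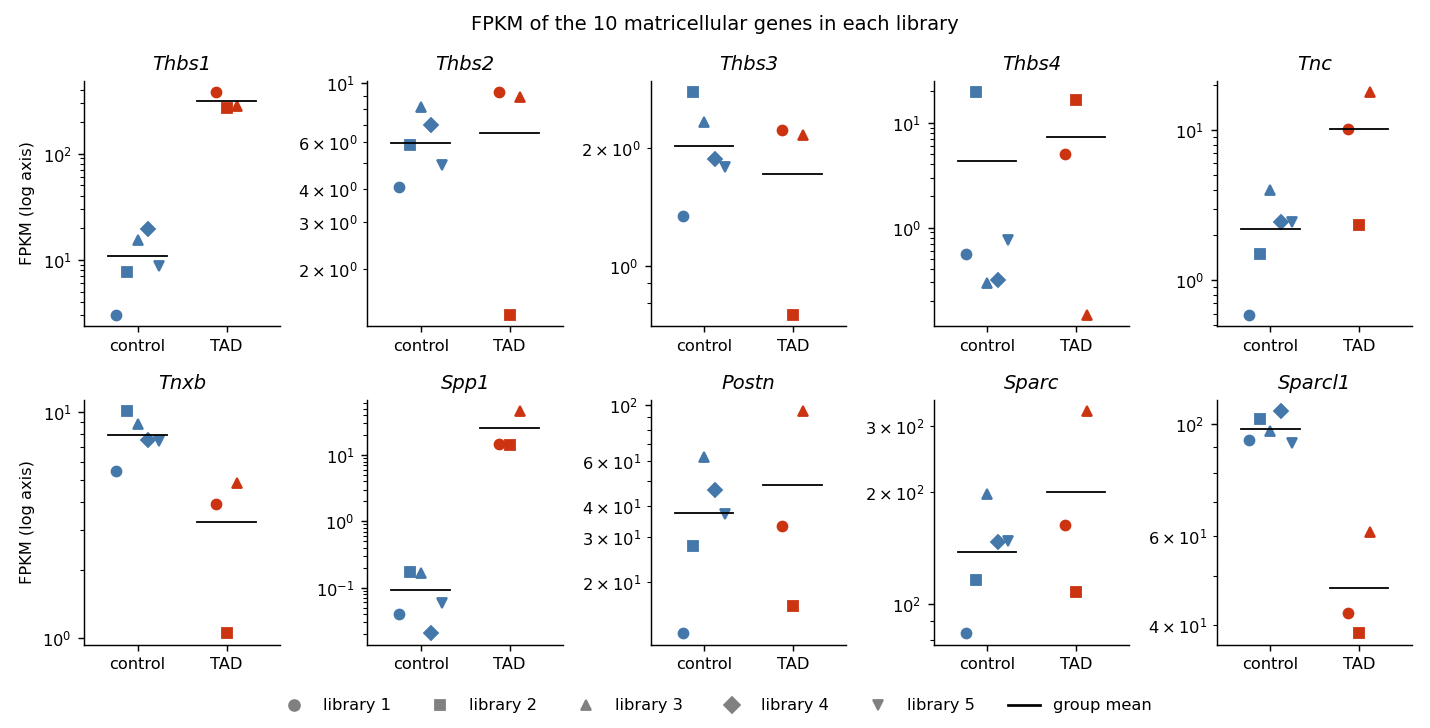
Each panel plots 1 gene, with FPKM (fragments by gene length in kilobases and by library size) on a log axis whose range differs between panels, points for the 5 control and 3 TAD libraries and a line at the group mean. Thbs1 and Spp1 lie above all controls in each TAD library, Sparcl1 and Tnxb lie below, and TAD 2 (square) lies within the control range for Tnc.

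Thrombospondins are secreted glycoproteins that bind matrix, growth factors and cell surface receptors. Thrombospondin 1 is stored in platelets, is made by many stressed cells, binds the receptors CD36 and CD47 and can activate latent TGF-beta. Thbs1 (ENSMUSG00000040152; GRCm38 chromosome 2, 118111876 to 118127133, plus strand) stood at 3.02, 7.70, 15.4, 19.3 and 8.72 FPKM in controls 1 to 5. It stood at 378, 271 and 281 FPKM in TAD 1 to 3. Every TAD library was thus far above the highest control, and the spread was wider among controls (6.38-fold from lowest to highest) than in TAD (1.40-fold). The difference was 4.82 ± 0.52 on the log2 scale (SE; edgeR adjusted p = 0.00064), and the exact permutation test, two-sided over all 56 assignments of libraries to groups, gave p = 0.0179, the smallest it can give. Without control 1 and TAD 1, the libraries rich in heart markers, the log2 fold change was 4.42 (edgeR adjusted p = 0.0054). A long noncoding model on the opposite strand shares 3.43% of the exon bases of Thbs1.

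Markers of blood-borne cells moved with Thbs1. All 6 tested platelet markers were called higher, and their summed level was 28.0 to 67.7 CPM in control and 335 to 1087 CPM in TAD. Among the TAD libraries the platelet sum was highest in TAD 2 (1087 CPM), which had the lowest Thbs1, and was 564 CPM in TAD 1, which had the highest. The part of platelets in the Thbs1 difference was not tested.

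The other thrombospondin genes did not pass. Thbs2, which codes for the closest relative of thrombospondin 1 (chromosome 17, 14665500 to 14694235, minus strand), stood at 4.06, 5.85, 8.14, 6.97 and 4.93 FPKM in controls 1 to 5. It stood at 9.27, 1.34 and 8.85 FPKM in TAD 1 to 3. TAD 1 and TAD 3 were above all controls and TAD 2 was below all of them. On the log2 scale TAD differed by 0.08 ± 0.52 (edgeR adjusted p = 0.93), it was -0.26 without TAD 1 and 0.56 without TAD 2, and its sign turned under several other settings.

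Thbs3 (chromosome 3, 89215180 to 89226837, plus strand) stood at 1.34, 2.78, 2.33, 1.88 and 1.79 FPKM in controls 1 to 5 and at 2.22, 0.748 and 2.16 FPKM in TAD 1 to 3. Here too TAD 2 was the lowest library of all 8, and the others overlapped. Its log2 fold change was -0.28 ± 0.36 (edgeR adjusted p = 0.61), and 0.08 without TAD 2. Exons of Thbs3 share 6.59% of their bases with Mtx1 on the opposite strand, so its low counts are open to error where strand was not kept.

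Thbs4, a gene of tendon, muscle and heart matrix (chromosome 13, 92751590 to 92794818, minus strand), was the most uneven of the 10. It stood at 0.561, 19.6, 0.298, 0.315 and 0.764 FPKM in controls 1 to 5 and at 5.04, 16.7 and 0.146 FPKM in TAD 1 to 3. Control 2, TAD 2 and to a lesser degree TAD 1 stood above the other libraries, TAD 3 was the lowest of all 8, and the groups overlapped, and the log2 fold change was 0.77 ± 1.61 (edgeR adjusted p = 0.76). It was 3.82 without control 2 (edgeR adjusted p = 0.052) and -0.74 without TAD 2. Control 2 was also the library with the most Ckm (721 CPM, against 0 to 92.5 CPM elsewhere), a muscle creatine kinase gene and the 1 skeletal muscle marker present of 6. TAD 2 had 15.5 CPM of Ckm and the most Tubb3, a neuronal tubulin gene (671 CPM). Control 1, at 0.561 FPKM of Thbs4, had 92.5 CPM of Ckm, 40.5 CPM of Tubb3 and the highest heart marker sum (17037 CPM). The part of muscle or nerve in the Thbs4 values was not tested.

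Because Thbs1 moved and Thbs2 did not pass, their ratio within each library was taken, which does not depend on library scaling. Thbs1 over Thbs2 was 0.744, 1.32, 1.89, 2.77 and 1.77 in controls 1 to 5, and 40.8, 202 and 31.7 in TAD 1 to 3. The groups did not overlap. The ratio of the geometric means was 41.1, and 23.2 without TAD 2, the library with the lowest Thbs2. Of the summed FPKM of the 4 thrombospondin genes, Thbs1 held 21.4% to 67.8% in control and 93.5% to 96.2% in TAD. This ratio and those of the tenascin and SPARC genes were chosen after the values were seen, so they are descriptions without a test.

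Tenascins are large glycoproteins of opposite habit. Tenascin C is low in the resting adult artery, is induced in wounds and modulates adhesion, while tenascin X is a constant part of loose connective tissue that organises collagen fibrils and whose loss in humans causes a form of Ehlers-Danlos syndrome. Tnc (ENSMUSG00000028364; GRCm38 chromosome 4, 63959785 to 64047015, minus strand) stood at 0.588, 1.49, 3.98, 2.42 and 2.46 FPKM in controls 1 to 5. It stood at 10.1, 2.31 and 17.8 FPKM in TAD 1 to 3. TAD 1 and TAD 3 were above all controls, and TAD 2 lay among them. TAD exceeded control by 2.17 ± 0.67 on the log2 scale (edgeR adjusted p = 0.043), close to the threshold, and the exact two-sided permutation p was 0.107. The call was lost without any one of control 1, 2, 4 and 5, TAD 1 and TAD 3 (1.47 to 2.23 on the log2 scale, with an adjusted p from edgeR of 0.0595 to 0.152), and was kept without control 3 or TAD 2 (2.64 without TAD 2, adjusted p = 0.0129). A noncoding transcript on the opposite strand shares 2.26% of its exon bases.

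Tnxb (ENSMUSG00000033327; GRCm38 chromosome 17, 34670535 to 34719815, plus strand) stood at 5.49, 10.1, 8.83, 7.55 and 7.46 FPKM in controls 1 to 5. It stood at 3.93, 1.05 and 4.84 FPKM in TAD 1 to 3. Each TAD library was below each control, with TAD 2 the lowest. Tnxb had a log2 fold change of -1.31 ± 0.44, which missed the threshold (edgeR adjusted p = 0.059; exact two-sided permutation p = 0.0179, the smallest possible). DESeq2 (-1.32, adjusted p = 0.0077) and limma on log2(FPKM + 1) (-1.17, adjusted p = 0.030) called it lower, as did edgeR without TAD 2 (-0.89, adjusted p = 0.031) or without TAD 3 (-1.70, adjusted p = 0.040).

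Within a library, Tnc over Tnxb was 0.107, 0.147, 0.450, 0.321 and 0.329 in controls 1 to 5, and 2.58, 2.21 and 3.69 in TAD 1 to 3. Tnxb exceeded Tnc in every control and Tnc exceeded Tnxb in every TAD library. TAD 2, which sat among the controls for Tnc alone, did not overlap them in this ratio. In TAD 2, Tnc was 1.06 times the control mean and Tnxb 0.133 times, so its ratio rests on low Tnxb. The geometric means differed 11.6-fold (9.55-fold to 13.7-fold with 1 library left out).

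**Figure D2:**
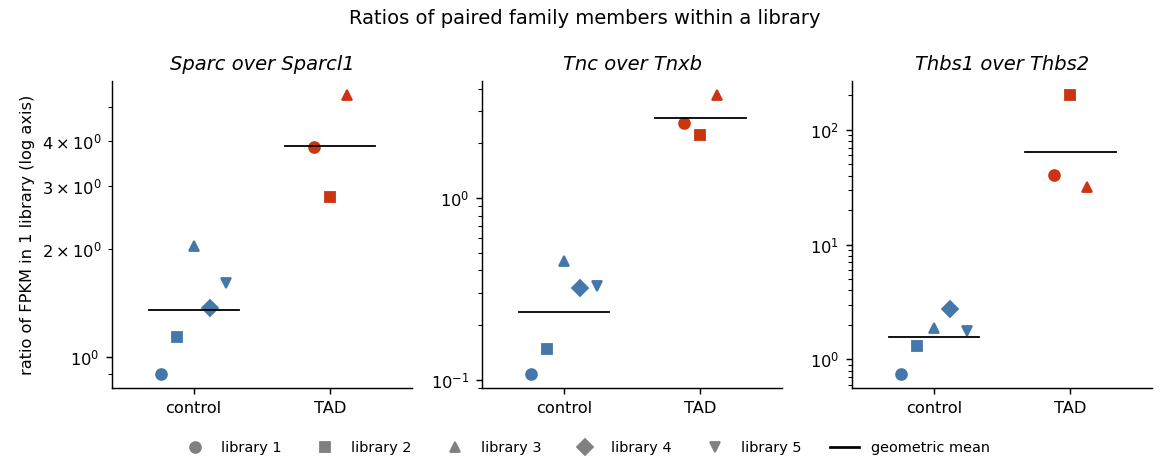
Each panel plots the ratio of the FPKM of a pair of related genes in 1 library, on a log axis, for 5 control and 3 TAD libraries, with a line at the geometric mean. The groups do not overlap in any panel, and the ratio of geometric means is 2.86 for Sparc over Sparcl1, 11.6 for Tnc over Tnxb and 41.1 for Thbs1 over Thbs2.

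Spp1 codes for osteopontin, a phosphorylated ligand of integrins and CD44 that is made by activated macrophages and by smooth muscle cells that have left the contractile state. Spp1 (ENSMUSG00000029304; GRCm38 chromosome 5, 104435118 to 104441050, plus strand) was near its detection limit in control, at 0.0405, 0.173, 0.164, 0.0205 and 0.0588 FPKM in controls 1 to 5, which rest on 4, 17, 17, 2 and 6 counts. It stood at 14.9, 14.2 and 46.8 FPKM in TAD 1 to 3, from 1345, 1594 and 5246 counts. No TAD library came near the control range, and TAD 3 stood apart from the others. The log2 fold change was 8.05 ± 0.69 (edgeR adjusted p = 0.00029), the sixth highest of all tested genes, and 7.26 without TAD 3. On the log2(FPKM + pseudocount) scale of limma, which understates the change of a gene this low in control, it was 4.37 with a pseudocount of 1 and 6.90 with 0.1, called in both. Pooled over the libraries of each group, the ratio of CPM was 276 (exact interval at 95%, for counting error alone, 207 to 378). A predicted model on the same strand shares 18.8% of the exon bases of Spp1, so reads there could have been left uncounted.

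Part of the macrophage marker list moved with Spp1. Of 10 tested, 5 were called higher and none was at 0 in any library. The summed level of the 10 was 378 to 712 CPM in control and 865 to 1618 CPM in TAD. In TAD 2, however, C1qa, C1qb and C1qc (21.2, 23.3 and 16.1 CPM) were below every control. Adgre1 and Csf1r were within the control range there. Cd14 (123 CPM), Mrc1 (66.4 CPM), Fcgr1 (62.5 CPM), Cd68 (23.5 CPM) and Lyz2 were above every control in TAD 2. Lyz2 made up 459 CPM of the sum. TAD 3 was highest and TAD 2 lowest for both Spp1 and the macrophage sum. TAD 1 and TAD 2 were close in Spp1 (14.9 and 14.2 FPKM) but not in the macrophage sum (1342 and 865 CPM). The part of macrophages in the Spp1 difference was not tested.

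The stretches of DNA ahead of Spp1 and Tnc are shown because these are the called genes for which RefSeq (GRCm38.p6) gave a window at the gene's start; such a window was found for 7 of the 10 genes. Each is the 250 bases before the start, 5′ to 3′ on the gene's strand, with capitals for letters that match one of 6 short motifs on either strand. The motifs were AP-1 (TGANTCA), the TATA box (TATAAA), the GC box (GGGCGG), TEAD (CATTCC), RUNX (TGTGGT) and SMAD (CAGACA), none of which overlap in these windows.
Spp1, chr5:104434861-104435110: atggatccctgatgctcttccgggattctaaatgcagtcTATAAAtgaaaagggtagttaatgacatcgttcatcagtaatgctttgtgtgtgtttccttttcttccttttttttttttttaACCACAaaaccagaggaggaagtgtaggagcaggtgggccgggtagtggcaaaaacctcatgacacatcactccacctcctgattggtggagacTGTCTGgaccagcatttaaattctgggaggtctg
Tnc, chr4:64047016-64047265: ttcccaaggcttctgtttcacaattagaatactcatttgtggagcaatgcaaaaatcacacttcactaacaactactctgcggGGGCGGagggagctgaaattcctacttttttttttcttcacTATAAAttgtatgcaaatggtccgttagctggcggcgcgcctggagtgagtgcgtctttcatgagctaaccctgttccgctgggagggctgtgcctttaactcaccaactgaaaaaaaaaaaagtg
The Spp1 window, on the plus strand, held a TATAAA match from base -211 to -206, a RUNX match from -128 to -123 and a SMAD match from -34 to -29, where -1 is the last base before the start. The Tnc window, on the minus strand, held a GC box match from -167 to -162 and a TATAAA match from -126 to -121. Of 32817 windows of this length in the mouse table, 12.4% hold TATAAA, 14% the RUNX letters, 17.1% the SMAD letters, 32.7% the GC box, 12.6% the TEAD letters and 6.75% the AP-1 letters. Neither window held the AP-1 or TEAD letters. A match is a description of letters and not a binding site.

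Periostin and the SPARC proteins bind collagen and bear on how its fibrils assemble. Postn, which codes for periostin, a protein that promotes the activation of lysyl oxidase (chromosome 3, 54361109 to 54391037, plus strand), stood at 12.5, 27.7, 62.5, 46.3 and 37.2 FPKM in controls 1 to 5. It stood at 33.3, 16.0 and 95.2 FPKM in TAD 1 to 3. TAD 3 was above all controls and the other TAD libraries lay among them. Its log2 fold change was 0.34 ± 0.61 (edgeR adjusted p = 0.72), and -0.63 without TAD 3.

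Sparc, which codes for a collagen-binding glycoprotein of remodelling tissue (chromosome 11, 55394500 to 55423183, minus strand), stood at 83.5, 116, 197, 146 and 148 FPKM in controls 1 to 5. It stood at 163, 108 and 330 FPKM in TAD 1 to 3. As with Postn, TAD 3 was the highest library and TAD 2 lay above control 1 alone. The log2 fold change was 0.49 ± 0.39 (edgeR adjusted p = 0.38), and -0.07 without TAD 3.

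Sparcl1 codes for hevin, the closest relative of SPARC. Sparcl1 (ENSMUSG00000029309; GRCm38 chromosome 5, 104079111 to 104113733, minus strand) stood at 93.1, 102, 96.8, 106 and 91.8 FPKM in controls 1 to 5. It stood at 42.1, 38.4 and 61.2 FPKM in TAD 1 to 3. It was the steadiest of the 10 genes among controls, with a coefficient of variation of 6.35% against 22.0% to 199% for the others, and each TAD library was well below each control. The log2 fold change was -1.09 ± 0.17 (edgeR adjusted p = 0.0029; exact two-sided permutation p = 0.0179, the smallest possible). It was called without each single library (-1.32 to -0.97) and without control 1, control 2 and TAD 2 together (-0.98, edgeR adjusted p = 0.029). Of 6 endothelial markers 3 were also called lower, and their summed level was 1173 to 1665 CPM in control and 869 to 1166 CPM in TAD; their part in the Sparcl1 difference was not tested.

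The ratio of Sparc to Sparcl1 was 0.897, 1.14, 2.04, 1.37 and 1.61 in controls 1 to 5, and 3.87, 2.80 and 5.39 in TAD 1 to 3. The lowest TAD library was above the highest control. The geometric means differed 2.86-fold (2.43-fold to 3.36-fold with 1 library left out).

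**Figure D3:**
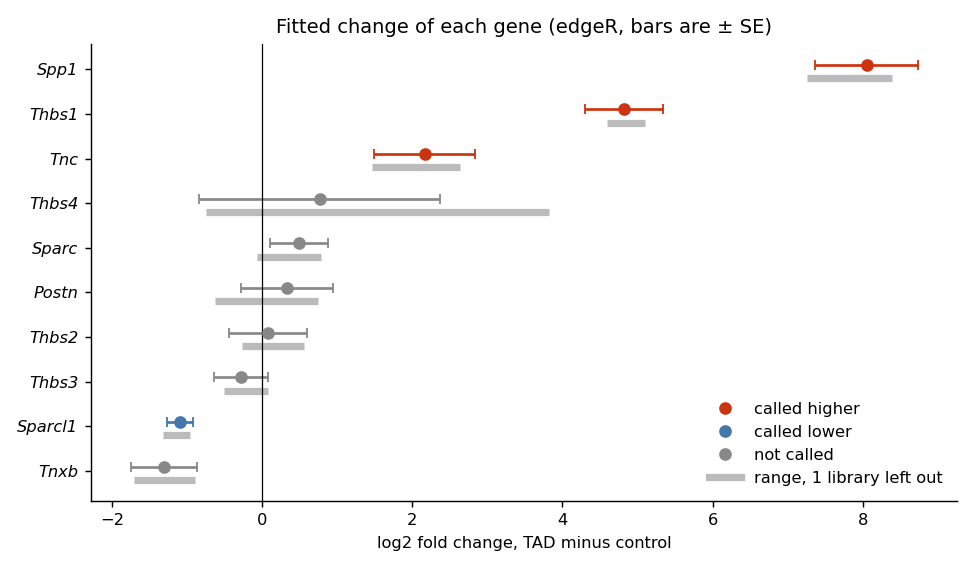
Points are the fitted log2 fold changes of TAD minus control with their SE, and grey bars are the range when 1 of the 8 libraries was left out. Spp1 (8.05), Thbs1 (4.82) and Tnc (2.17) were called higher and Sparcl1 (-1.09) lower, and the grey bar of Thbs4 runs from -0.74 to 3.82.

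The order of levels per length also differed between the groups. In control the means fell from Sparc (138 ± 42.2 FPKM; SD, n = 5) through Sparcl1 (98.1 ± 6.23), Postn (37.2 ± 18.9), Thbs1 (10.8 ± 6.48), Tnxb (7.90 ± 1.74), Thbs2 (5.99 ± 1.62), Thbs4 (4.31 ± 8.56), Tnc (2.2 ± 1.26) and Thbs3 (2.02 ± 0.55) to Spp1 (0.0914 ± 0.0719). Neighbours in this order were separate in range for Sparcl1 over Postn and for Thbs3 over Spp1, and the other neighbours overlapped. In TAD the order was Thbs1 (310 ± 59.2 FPKM; SD, n = 3), Sparc (200.0 ± 116), Postn (48.2 ± 41.7), Sparcl1 (47.2 ± 12.2), Spp1 (25.3 ± 18.6), Tnc (10.1 ± 7.76), Thbs4 (7.29 ± 8.49), Thbs2 (6.49 ± 4.46), Tnxb (3.27 ± 1.98) and Thbs3 (1.71 ± 0.84). There the ranges of neighbours were separate for Sparc over Postn alone. Spp1 moved from place 10 to place 5 and Thbs1 from place 4 to place 1. The summed FPKM of the 10 genes was 204 to 396 in control and 469 to 848 in TAD, of which Thbs1 held 1.48% to 5.71% and 33.2% to 57.8%.

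Within a group, the genes tended to be high or low in the same libraries. TAD 2 had the lowest FPKM of the TAD libraries for 9 of the 10 genes, Thbs4 being the exception, and TAD 3 the highest for 6 (Tnc, Tnxb, Spp1, Postn, Sparc and Sparcl1). Among controls, control 1 was lowest for 7 (Thbs1, Thbs2, Thbs3, Tnc, Tnxb, Postn and Sparc). The mean log2 CPM of the fibroblast markers, relative to the control mean, was -1.90 in TAD 2 against 0.29 in TAD 1 and 0.51 in TAD 3, and that of the smooth muscle markers was -2.49, -1.36 and -0.61 in the same order. In control 1 the smooth muscle score was -0.99, against -0.18 to 0.71 in the other controls. Summed levels of 5 mesothelial markers (5.67 to 143 CPM in control, 6.36 to 72.6 CPM in TAD) and of the 5 cartilage and tendon markers present (15.4 to 45.6 CPM in control, 10.5 to 114 CPM in TAD) overlapped between groups. The part of tissue makeup in these differences was not tested.

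**Figure D4:**
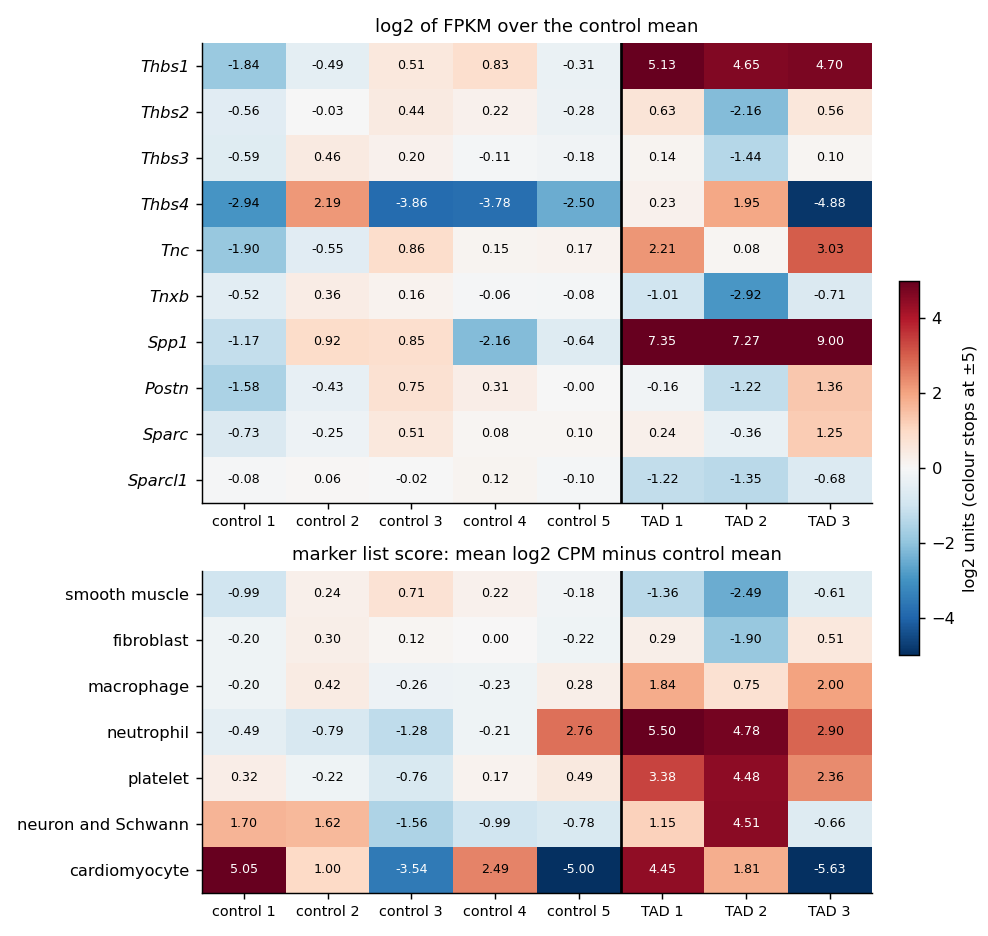
The upper map gives, for each gene and library, the log2 of FPKM over the control mean, and the lower map gives the mean log2 CPM of 7 marker lists relative to the control mean; colours stop at 5 log2 units and numbers give each value. Thbs1 (4.65 to 5.13) and Spp1 (7.27 to 9.0) are raised in all 3 TAD libraries, while TAD 2 has low values for Thbs2 (-2.16), Tnxb (-2.92), fibroblast markers (-1.90) and smooth muscle markers (-2.49).

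Genes around these proteins were read from 5 lists, each given beside the 27.0% of all genes that were called and the median log2 fold change of 0.04 over all genes. Of 21 other matricellular genes 13 were in the table, of which 2 rose, none fell and 11 did not pass (median log2 fold change 0.55.) Tgfbi, a TGF-beta-induced relative of periostin, rose from 12.5 ± 3.27 FPKM (SD, n = 5) to 59.0 ± 10.7 FPKM (SD, n = 3), or by 2.21 ± 0.24 on the log2 scale (edgeR adjusted p = 0.00067). Ccn4, a member of the CCN family, had 2.60 ± 0.75 (edgeR adjusted p = 0.034), and was not called without any one of controls 2 to 5, TAD 1 or TAD 3 (1.69 to 2.64, adjusted p of 0.0661 to 0.136; 1.69 without TAD 3). The most abundant genes that did not pass were Ccn2 (79.2 ± 60.3 FPKM in control and 227 ± 229 in TAD), whose log2 fold change of 1.5 was 0.27 without TAD 3, and Ccn1 (96.4 ± 68.2 and 144 ± 136). Between 1 (without any one of controls 2 to 5 or TAD 1) and 4 (without TAD 2) genes of the list were called with 1 library left out.

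Among 23 receptors of these proteins, 5 rose, 1 fell and 17 did not pass (median log2 fold change 0.44.) Cd44, the hyaluronan and osteopontin receptor, rose from 1.46 ± 0.70 FPKM (SD, n = 5) to 13.5 ± 7.25 FPKM (SD, n = 3), or by 3.17 ± 0.41 on the log2 scale (edgeR adjusted p = 0.0013). Sdc4, a heparan sulfate syndecan that binds thrombospondins and tenascin C, rose by 1.92 ± 0.34 (adjusted p = 0.0048). The integrin genes Itga5 (2.22 ± 0.55, adjusted p = 0.019) and Itgb8 (1.69 ± 0.45, adjusted p = 0.024) and the innate receptor gene Tlr4 (0.95 ± 0.28, adjusted p = 0.036) were also called higher. Itga5 was lost without TAD 3 (1.40, edgeR adjusted p = 0.066), Itgb8 without control 3, control 4, TAD 1 or TAD 2 (1.52 to 1.64, adjusted p of 0.0551 to 0.0662), and Tlr4 without control 1, 2, 4 or 5, TAD 1 or TAD 3 (0.75 to 0.97, adjusted p of 0.0616 to 0.140).

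Cd36 and Cd47 code for receptors of thrombospondin 1. Cd36, a scavenger receptor of macrophages, platelets, endothelium and fat, was lower, with 98.7 ± 10.5 FPKM in control (SD, n = 5) and 59.7 ± 14.4 FPKM in TAD (SD, n = 3) and a log2 difference of -0.76 ± 0.21 (edgeR adjusted p = 0.030). Its call was lost without control 1, control 4, control 5, TAD 1 or TAD 3 (-0.79 to -0.59, adjusted p of 0.0558 to 0.0699). Adipocyte markers, of which 3 of 6 were called lower, summed to 5739 to 7311 CPM in control and 3865 to 6944 CPM in TAD, and their part was not tested. Cd47, chosen after its value was seen, had 0.69 ± 0.22 and did not pass (edgeR adjusted p = 0.051); DESeq2 called it (0.67, adjusted p = 0.025), as did edgeR without TAD 3 (0.95, adjusted p = 0.0020). The most abundant receptor genes that did not pass were Itgb1 (0.23 ± 0.35) and Calr (0.43 ± 0.19). Without control 4 or TAD 1, 3 receptor genes were called.

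Of 14 genes of TGF-beta activation and response, 3 rose, none fell and 11 did not pass (median log2 fold change 0.37.) Tgfb1, the ligand that thrombospondin 1 can release from latency, rose from 6.78 ± 0.44 FPKM (SD, n = 5) to 16.5 ± 2.07 FPKM (SD, n = 3), or by 1.24 ± 0.13 on the log2 scale (edgeR adjusted p = 0.00054). Nrros, which holds latent TGF-beta on myeloid cells, rose by 1.00 ± 0.20 (adjusted p = 0.0072). Ltbp4, which codes for a latent TGF-beta binding protein, had -1.11 ± 0.41 and did not pass (edgeR adjusted p = 0.074). DESeq2 (-1.13, adjusted p = 0.014) and limma on log2(FPKM + 1) (-1.20, adjusted p = 0.049) called it lower. Limma did not call it with a pseudocount of 0.1 (-1.26, adjusted p = 0.0507). Nor did limma with a pseudocount of 1 and no filter on low FPKM (-1.20, adjusted p = 0.054). Tgfbr2 (0.03 ± 0.19) did not pass.

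Of 15 measured genes on a list of proteases drawn up around matricellular proteins, 8 rose, none fell and 7 did not pass (median log2 fold change 1.20.) Adamts4 (3.55 ± 0.37, edgeR adjusted p = 0.00054) and Ctss (2.79 ± 0.24, adjusted p = 0.00029), the gene of cathepsin S, were among the largest changes. Mmp9, a gelatinase that cuts osteopontin, had 3.09 ± 0.58 (adjusted p = 0.0059), Mmp3 2.21 ± 0.52 (adjusted p = 0.015) and Plat, the gene of tissue plasminogen activator, 1.38 ± 0.25 (adjusted p = 0.0050). Mmp9 was 3.79 without control 5 and Adamts4 2.94 without TAD 1, both still called. Without control 1, control 2 and TAD 2 together Mmp9 was not called (2.68, edgeR adjusted p = 0.051). Mmp3 was not called without TAD 1 (2.05, edgeR adjusted p = 0.054). Adamts1, which cuts thrombospondins, had 1.43 ± 0.51 (adjusted p = 0.069) and passed without control 4 (1.81, adjusted p = 0.032) or TAD 2 (1.74, adjusted p = 0.043), without control 1, control 2 and TAD 2 together (1.30, adjusted p = 0.040) and by DESeq2 (1.42, adjusted p = 0.020). Ctsb, the most abundant protease gene, had 0.41 ± 0.18 and did not pass. Without TAD 2, 13 of the proteases were called. Neutrophil markers, 5 of 7 called higher, summed to 8.20 to 120 CPM in control and 423 to 1224 CPM in TAD. Their part in the Mmp9 difference was not tested.

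**Figure D5:**
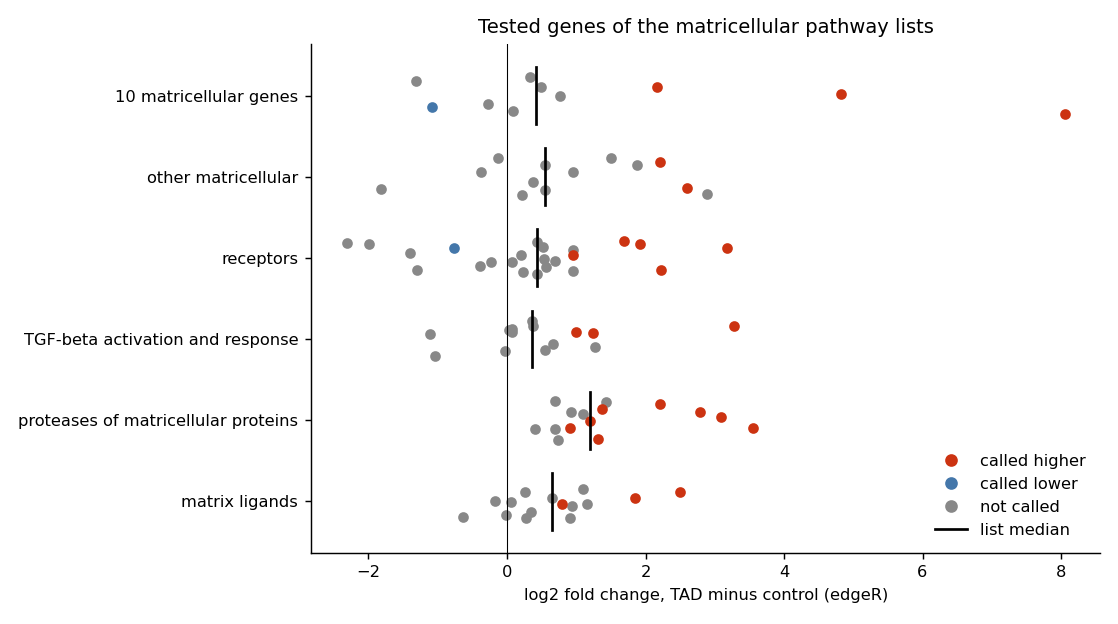
Points are the log2 fold changes of the tested genes of each list, TAD minus control, coloured by call, with a line at the list median and vertical scatter for display only. Spp1 (8.05) and Thbs1 (4.82) lie beyond every gene of the other lists, the highest of which is Adamts4 (3.55), and the median of the proteases is 1.20.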

How the data were processed

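Per the labels' protocols, 200 ng of aortic RNA went into each NEBNext Ultra library; no source used here says whether strand was kept. Tools named by the submitters' processing notes are HISAT2, HTSeq, fastp 0.23.1 and bcl2fastq 2.19, with human builds, although the identifiers are mouse (13683 of 13701 tested are in GENCODE M21). The deposited table holds a raw count and an FPKM value per gene and library, per the file headers. No gene in it has counts in fewer than 3 libraries.

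Groups came from the titles. After filterByExpr, which kept 13701 of 13839 genes, and TMM scaling, counts were tested with edgeR 4.0.16 (quasi-likelihood, R 4.3.3), with Benjamini-Hochberg adjustment over all tested genes and a threshold of 0.05. Each SE was obtained from the fold change (log2, absolute) and the root of its F statistic. Log2 CPM used a prior count of 2. Methods were tested on simulated data. Loci and exon overlaps came from GENCODE M21 on GRCm38. Members and lists were chosen with earlier results of these data known. Of 184 list and marker genes, 160 were in the table. Named genes were the 10 members, up to 5 called genes per list and direction and the 2 most abundant not called; Cd47 is an addition. A gene that the rule picks is not reported here. Alternatives were DESeq2 1.42.0, limma 3.58.1 on log2(FPKM + 1) and log2(FPKM + 0.1), other scaling and filters, a replicate block and left-out libraries; leaving libraries out of the ratios was added after the data were seen. No pair of replicates agreed within sampling noise (chi-square per degree of freedom of at least 46.4). Intervals cover counting error only.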

Additional observations from a re-analysis of the deposited data

Results flagged for a closer look

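Thbs4 in control 2 stood at 19.6 FPKM, far above the 0.298 to 0.764 FPKM of the other controls, with a gap to the nearest of 0.976 of the range of the group. It was the 1 gene of 10 with such a library among the 5 controls, and chance sets apart about 1 group in 20. The same library had 721 CPM of the muscle gene Ckm, while control 1 had 92.5 CPM of Ckm and 0.561 FPKM of Thbs4. The part of muscle in the Thbs4 value was not tested.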

How the results depend on the processing

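Thbs1 and Spp1 stayed called higher and Sparcl1 lower under every alternative run, although the size of the Spp1 change depended on the pseudocount (8.05 from counts, 4.37 with pseudocount 1, 6.90 with 0.1). Tnc was not called by limma with pseudocount 1 (1.57, with or without the FPKM filter) or 0.1 (1.96), with a replicate block (2.23), on the same 6 libraries without a block (2.27), an alternative added after seeing the data, or without control 1 and TAD 1 (1.93); with 1 library left out it ran from 1.47 to 2.64. Tnxb was called by DESeq2 (-1.32), by limma with pseudocount 1 (-1.17, with or without the filter) or 0.1 (-1.47), and without control 1, control 2 and TAD 2 (-0.91); with 1 library left out it ran from -1.70 to -0.89. Of genes that were not called, Thbs2 turned negative with the block (-0.27), without control 1 and TAD 1 (-0.37) and by limma (-0.14 with or without the filter, -0.26 with pseudocount 0.1), and ran from -0.26 to 0.56 with 1 library left out. Thbs3 was 0.081 without control 1, control 2 and TAD 2 (-0.51 to 0.080 with 1 library left out). With 1 library left out, Thbs4 ran from -0.74 to 3.82, Postn from -0.63 to 0.75, Sparc from -0.066 to 0.79, Ccn1 from -0.51 to 1.04, Itgb1 from -0.12 to 0.45 and Tgfbr2 from -0.16 to 0.13; Tgfbr2 was -0.023 after upper-quartile scaling and -0.24 without control 1 and TAD 1. The causes were not tested.

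DESeq2 called 4 of 13 other matricellular, 6 of 14 TGF-beta and 5 of 15 matrix ligand genes. It also called more genes in general (4747 of 13839, against 3705 of 13701 with edgeR), so these counts are not read as particular to the lists. The block (control 1 to 3 and TAD 1 to 3, so 2 controls fewer) called 646 genes higher and 520 lower, and 1 other matricellular, 1 TGF-beta, 4 protease and 1 matrix ligand gene; without the block the same libraries gave 882 and 654, and 1, 1, 4 and 0, with 3 receptors. The labels do not say whether replicate numbers pair the samples. Same-numbered libraries correlated at 0.43, 0.097 and 0.54 in their deviations from the group means. TAD 1 and TAD 3 correlated best with the control of the same number, and TAD 2 with control 1 (0.36). Whether the numbers mark pairs was not tested. Without control 1 and TAD 1 the counts were 1098 higher and 865 lower, 1 other matricellular gene, 2 receptors, 5 proteases and 1 matrix ligand; without control 1, control 2 and TAD 2, 5 TGF-beta genes. With 1 library left out the ranges were 1 to 4 other matricellular genes, 3 to 9 receptors, 2 to 4 TGF-beta genes, 6 to 13 proteases, 1 to 6 matrix ligands, 1408 to 2076 genes higher and 1141 to 1660 lower. Of the 19 called list genes that the naming rule picks, 10 kept their call without each single library. The order of the group means was the same with TPM. TPM rescales all genes of a library alike, so the order within a library could not change. Low counts limit Spp1 in control, at 46 counts over 5 libraries.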

Other observations

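Of 15 matrix genes whose products bind these proteins, 3 rose, none fell and 12 did not pass (median log2 fold change 0.66.) Lox, the gene of a lysyl oxidase, the kind of enzyme that BAPN inhibits, rose from 13.1 ± 6.37 FPKM (SD, n = 5) to 76.2 ± 38.6 FPKM (SD, n = 3), or by 2.50 ± 0.49 on the log2 scale (edgeR adjusted p = 0.0071). Col12a1, a fibril-associated collagen gene, had 1.84 ± 0.44 (adjusted p = 0.016; 1.26 without TAD 1, adjusted p = 0.075), and Col4a1, a basement membrane collagen gene, had 0.80 ± 0.23 (adjusted p = 0.031), lost without control 1, 2 or 4, TAD 1 or TAD 3 (0.60 to 0.83, edgeR adjusted p of 0.0506 to 0.129). Col1a1 (0.91 ± 0.69) and Col3a1 (1.10 ± 0.57) did not pass; without TAD 3 they had 0.23 and 0.42, and without TAD 2 Col3a1 passed (1.59, edgeR adjusted p = 0.013), as it did without control 1, control 2 and TAD 2 together (1.42, adjusted p = 0.027). With 1 library left out, 1 gene (without TAD 1) to 6 genes (without TAD 2) of the list were called.

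Among 10301 genes with a mean of at least 1 FPKM, those whose log2 CPM over the 8 libraries ran most like Thbs1 were Gdap2 (Pearson r of 0.994), Zrsr2 (0.992) and Eif1a (0.991). For Spp1 they were Fbxl14 (0.996), Slc25a37 (0.992) and C3ar1 (0.991), for Tnc Pcsk5 (0.991), Errfi1 (0.989) and Chsy1 (0.987), and for Sparcl1 Dact2, Pon3 and Fgf11 (0.992 each). These values span both groups, whose difference sets much of each r, and carry no test.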
